A study of Mus musculus with 8 samples.

Results

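The genes described here are the ligands through which a tumor cell can hold back T cells, NK cells and macrophages: Cd274, Pdcd1lg2, Cd80, Cd276, Pvr, Nectin2, Tnfrsf14, Lgals9 and Cd47. They were found by gene symbol, and 8 of the 9 had 1 row each among the 20432 genes listed for both treatments; Pdcd1lg2 was not analysed here. RNA-seq was done on MC38, a mouse colon adenocarcinoma cell line, in 8 samples: 2 wild-type control and 2 DENR KO samples left untreated, and 2 of each genotype given IFNγ (20 ng/ml, 4 h). DENR is a translation factor that helps ribosomes start again after a short upstream reading frame, and its gene was knocked out with Cas9 and single-guide RNAs carried by lentivirus. The labels do not say which guide was used, whether a KO sample was a pool or a clone, or whether the 2 samples of a group were separate cultures, so the p-values measure the spread between these samples, which may be technical. The question asked of each ligand was whether its mRNA differed between DENR KO and control cells under each treatment, and how Cd274 compared with the rest.

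Checkpoint ligands sit on the tumor cell and bind inhibitory receptors on immune cells. Cd274 encodes PD-L1, which binds PD-1 on T cells. IFNγ from T cells binds its receptor on the tumor cell, the kinases JAK1 and JAK2 at the receptor become active, their signal turns on the transcription factor IRF1, and IRF1 drives Cd274, so that a tumor under attack makes more of the protein that stops the attack. Of the other ligands analysed here, CD80 binds CD28 and CTLA-4, PVR and Nectin-2 bind TIGIT and CD226, and HVEM (Tnfrsf14) binds BTLA and CD160. Galectin-9 (Lgals9) binds TIM-3, and CD47 binds SIRPα on macrophages as a signal against engulfment.

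Each sample had between 17369020 and 18403790 reads on genes. The values are normalized counts, that is, reads on a gene after division by the size factor of its sample (0.976 to 1.02 over the 8). The 2 treatments were normalized separately, so tests compared genotypes within a treatment, and a level set across treatments is a description. Tests used limma on log2(normalized count + 1), leaving out genes whose mean was under 10, and a gene was called at an adjusted p under 0.05 over all genes tested. Denr, the targeted gene, had 1448 and 1297 normalized counts in untreated control samples against 943 and 916 in DENR KO samples, and 1438 and 1401 against 946 and 957 with IFNγ. Its mRNA was called lower in DENR KO in both treatments (log2 fold change −0.56 and −0.58, limma adjusted p = 0.00011 and 8.17e-06), which leaves 67.7% and 67.0% of the control level, and mRNA level is no measure of whether the edited gene still makes protein. Levels set across treatments are in RPM (reads per 1000000 reads on genes), and levels set between genes in RPKM (RPM per kilobase of gene length). Markers of immune and endothelial cells were low: the summed level was at most 0.435 RPM for the T cell markers with a row (2 of 5), at most 0.221 for the B cell markers (1 of 3), 2.99 to 4.51 for the macrophage markers (4 of 5, most of it Cd68), 0.498 to 2.11 for the dendritic cell markers (2 of 3) and 0.885 to 1.73 for the endothelial markers (3 of 3). Ptprc, the pan-leukocyte marker, had 0 to 3 reads in the untreated samples. Lyz2 had 2 and 0 reads in untreated control samples and 0 in untreated DENR KO samples. Itgam had 1 and 1 reads in control samples with IFNγ and 0 in DENR KO samples with IFNγ. Epithelial markers were as low (0.719 to 1.39 RPM for 5 of 8 genes with a row, among them Cdh1 with 5 to 21 reads), although the line is labelled an adenocarcinoma, whereas the 4 fibroblast markers summed to 1007 to 1018 RPM in control and 918 to 942.5 in DENR KO samples with IFNγ, and to 1056 to 1077 and 967 to 1002 untreated. With IFNγ the lower sum followed Dcn, a matrix proteoglycan. Untreated, mean Dcn was 254.5 RPM in control and 204 in DENR KO samples, and mean Col1a2 was 673 and 645. Col1a1, Col1a2 and Pdgfra were at 96.3%, 100.8% and 104% of control with IFNγ and at 98.3%, 96.3% and 98.0% untreated, with none of the 3 called. Dcn was called lower in DENR KO with IFNγ (log2 fold change −0.47, limma adjusted p = 4.24e-05) and untreated (−0.31, adjusted p = 0.013), and the untreated call was lost without control untreated replicate 1 or 2 or DENR KO untreated replicate 2 (adjusted p = 0.0588, 0.309 and 0.408).

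Cd274 was the one ligand called between DENR KO and control cells, and it was lower in DENR KO cells given IFNγ. Control cells with IFNγ gave 2123 and 2175 normalized counts of Cd274, and DENR KO cells gave 1217 and 1205. The groups did not overlap, and the difference between them was many times the distance between the samples of a group. With means of 2149 ± 36.5 and 1211 ± 8.55 (SD, n = 2 each), DENR KO cells held 56.4% of the control level. The log2 fold change was −0.83 (SE 0.066, 95% interval −0.96 to −0.69, limma adjusted p = 8.35e-09). Among the 13928 genes tested, Cd274 stood at rank 25 by p and at rank 157 by fold change counted from the lowest.

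**Figure D1:**
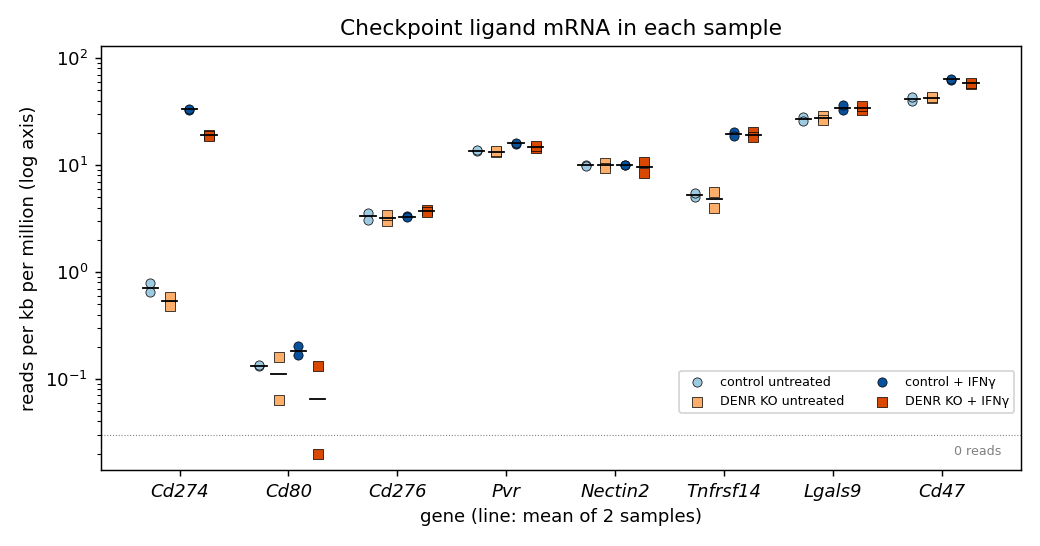
RPKM (log axis) of each ligand in every sample, with circles for control and squares for DENR KO, pale for untreated and dark for IFNγ, and a line at the mean of 2 samples. Points under the dotted line stand for 0 reads. Cd274 goes from below 1 to above 18 with IFNγ, and its DENR KO samples (18.8 and 18.99) lie below the control samples (32.9 and 33.6).

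No other ligand was called in that comparison. Of the 7 ligands tested, 1 was called lower and 0 higher, where 2.25% of all genes tested were called lower and 1.8% higher. At an unadjusted p under 0.05 there were 2, Cd274 and Cd47 (13.4% of all genes), and edgeR and DESeq2 called Cd274 alone. The median log2 fold change of the 7 was −0.08, and that of all genes was −0.00036. DENR KO samples lay below control samples without overlap for 3 of the 7 ligands tested (Cd274, Pvr and Cd47) and above for 1 (Cd276), where 20.8% and 21.1% of genes did so.

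Untreated cells held little Cd274 mRNA. Control cells gave 51.3 and 41.8 normalized counts (51 and 41 reads) and DENR KO cells 38.3 and 31.4 (39 and 32 reads). Both DENR KO samples were below both control samples for Cd274 and no other of the 7 ligands, and for 19.6% of the genes tested; 0 of the 7 had both above, against 20.4% of genes. The log2 fold change was −0.41 (SE 0.29, 95% interval −0.996 to 0.18, limma adjusted p = 0.70), and the interval at this depth covers both no difference and a difference as large as the one with IFNγ. limma called 0 of the 7 ligands in untreated cells, where 0.579% of 13998 genes were called, edgeR and DESeq2 called 0, and 0 had an unadjusted p under 0.05 (9.25% of genes).

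An interaction term, fitted to the 8 samples together, tested whether the DENR KO effect on a ligand differed between treatments. For Cd274 the effect with IFNγ was lower than the untreated effect by 0.42 on the log2 scale, which did not pass (difference −0.42, 95% interval −0.80 to −0.04, unadjusted p = 0.0322, limma adjusted p = 0.78). The 8-sample fit uses 1 variance per gene for both treatments. Its SE for the Cd274 difference, 0.18, is below the 0.29 of the untreated effect alone. That interval is therefore likely too narrow, and the unadjusted p too low. For Cd47 the difference was −0.19 (95% interval −0.35 to −0.02, unadjusted p = 0.026, adjusted p = 0.71). limma called 0 of the 7 ligands, where 0.442% of 14268 genes were called, edgeR and DESeq2 called 0 as well, and 2 had an unadjusted p under 0.05 (5.72% of genes). The lower Cd274 of IFNγ-treated DENR KO cells is therefore not shown to be absent from untreated cells.

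**Figure D2:**
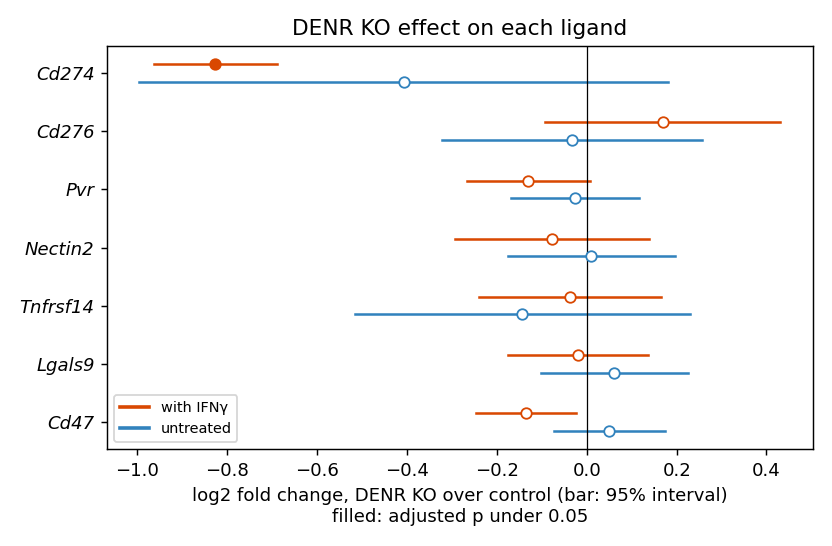
DENR KO over control as a log2 fold change for the 7 ligands tested, with IFNγ (orange) and untreated (blue); bars are 95% intervals from limma and a filled point marks an adjusted p under 0.05. Cd274 with IFNγ (−0.83) is the one filled point, and the interval of untreated Cd274 is the widest.

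Cd274 had by far the highest ratio of IFNγ-treated to untreated levels among the ligands tested. In RPM, Cd274 of control cells went from 2.59 ± 0.36 untreated to 121 ± 1.78 with IFNγ (SD, n = 2 each), a 46.5-fold level. In DENR KO cells it went from 1.93 ± 0.27 to 68.5 ± 0.38, a 35.5-fold level. On the log2(RPM + 1) scale the ratios were 5.08 and 4.57, rank 26 and rank 22 among 14268 genes whose median was −0.07 and −0.04. DENR KO cells thus still carried far more Cd274 mRNA with IFNγ than without it. Next came Tnfrsf14, 3.73-fold in control and 4.01-fold in DENR KO cells, followed by Cd47 (1.53-fold and 1.36-fold), Lgals9 (1.29-fold and 1.24-fold) and Pvr (1.17-fold and 1.11-fold). In each of these 5 of the 7 ligands tested the IFNγ samples lay above the untreated samples in both genotypes, as they did for 11% of 14268 genes. Nectin2 (1.01-fold and 0.966-fold) overlapped in both genotypes, and Cd276 (0.995-fold and 1.16-fold) overlapped in control cells. A log2 ratio above 1 was seen in Cd274 and Tnfrsf14, in both genotypes, and in 2.33% of all genes in control and 1.70% in DENR KO cells.

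**Figure D3:**
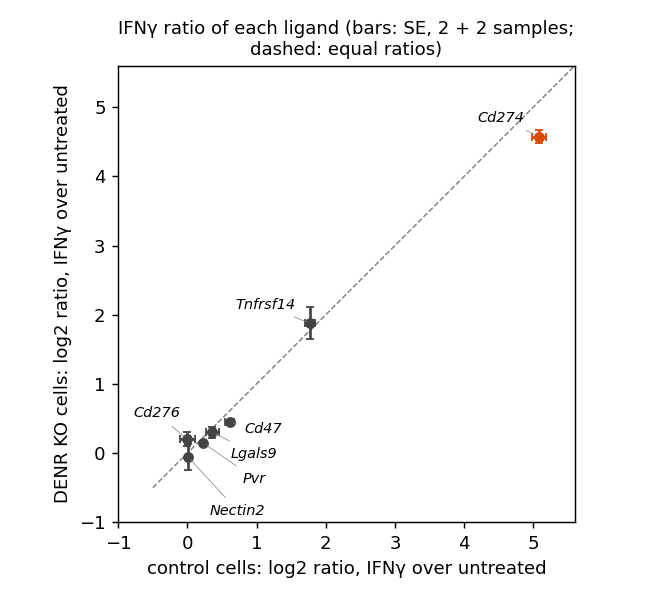
Log2 ratio of IFNγ-treated over untreated cells, on log2(RPM + 1), in control cells (x axis) and DENR KO cells (y axis) for the 7 ligands tested; bars are standard errors over 2 and 2 samples and the dashed line marks equal ratios. Cd274 lies at 5.08 and 4.57, under the line, and Tnfrsf14 at 1.77 and 1.88, next to it.

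Tnfrsf14, which encodes the receptor HVEM and acts as a ligand when it binds BTLA, was the other ligand with a large IFNγ ratio. With IFNγ it had 523 and 482 normalized counts in control and 517 and 463 in DENR KO samples. The groups overlapped and the means were 502 ± 28.5 and 489.8 ± 38.0. The log2 fold change was −0.04 (95% interval −0.24 to 0.16, limma adjusted p = 0.93), so a fall of the size seen for Cd274 lies outside the interval. Untreated, it had 132 and 139.8 normalized counts in control and 103 and 146 in DENR KO samples (log2 fold change −0.14, 95% interval −0.52 to 0.23, adjusted p = 0.87). Both DENR KO intervals include 0, and the DENR KO effect did not differ detectably between treatments (difference 0.11, 95% interval −0.31 to 0.52, adjusted p = 0.998).

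The promoters of the ligands were searched for short motifs known from interferon signaling, in RefSeq windows on GRCm38.p6 that run from 250 bases before to 50 after a start site, for 7 ligands with a window (Cd274, Cd80, Cd276, Nectin2, Tnfrsf14, Lgals9 and Cd47). The motifs, sought on both strands, were TTCNNNGAA (GAS, the gamma-activated site), the ISRE core (GAAA, any 2 letters, GAAA, bound by IRF factors) and an NF-κB motif (GGG, any 2 letters, TTTCC), present in 8.3%, 3.44% and 1.63% of 32851 such windows. Tnfrsf14 and Lgals9 held the ISRE core and none of the 7 held the others. Cd274 and Cd80 held a wider spaced form of the ISRE core (GAAA, any 4 letters, GAAA), which was searched for after the sequences had been read and occurs in 2.7% of windows; Tnfrsf14 and Lgals9 did not hold it. All 5 matches are shown, so that the letters can be set beside the IFNγ levels. Of the ligands with a match, Cd274, Tnfrsf14 and Lgals9 had IFNγ samples above untreated samples in both genotypes. Cd80, on very few reads, did not (1.39-fold in control and 0.585-fold in DENR KO cells). Cd47 held no match, and its IFNγ samples also lay above untreated samples in both genotypes (1.53-fold and 1.36-fold). Cd276 and Nectin2 held no match and did not lie above in both genotypes. Pvr had no window. Each is given 5′ to 3′ on the strand of the gene, with the match in capitals, and each reads as the motif on the opposite strand. The Cd274 stretch is chr19:29367253-29367282 (plus strand), the match lies at positions −175 to −164 from the start site, and the annotation places it in an untranslated exon of Plgrkt, which runs the other way. The Tnfrsf14 stretch is chr4:154928122-154928151 (minus strand), with the match at positions −64 to −55 from the RefSeq start site and in an untranslated exon of Tnfrsf14 in GENCODE. The first Lgals9 stretch is chr11:78984960-78984989 (minus strand), with the match at positions −55 to −46 from the start site and between genes. The second is chr11:78984890-78984919, with the match at positions 15 to 24 in an untranslated exon of Lgals9. The Cd80 stretch is chr16:38458953-38458982 (plus strand), with the match at positions 30 to 41 in an untranslated exon of Cd80. A match is a run of letters and was not tested as a binding site.
Cd274: cgaagcctagTTTCGTTTTTTCttaaactg
Tnfrsf14: ctattttttcTTTCATTTTCacttttcctt
Lgals9, first: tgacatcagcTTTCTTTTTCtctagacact
Lgals9, second: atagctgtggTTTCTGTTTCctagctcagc
Cd80: ctcttactagTTTCTCTTTTTCaggttgtg

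Lgals9 encodes galectin-9, a secreted and surface lectin. With IFNγ it had 1239.8 and 1388 normalized counts in control and 1247 and 1344 in DENR KO samples, and untreated 1075.5 and 978 against 1114.5 and 1028. The groups overlapped in both treatments. The log2 fold change was −0.02 with IFNγ (95% interval −0.17 to 0.14, limma adjusted p = 0.96) and 0.06 untreated (−0.10 to 0.23, adjusted p = 0.87). With IFNγ the DENR KO intervals of Tnfrsf14 and Lgals9 stayed within 0.24 log2 units of 0.

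Cd47 was the most abundant ligand, at 39.8 to 64.5 RPKM. With IFNγ it had 6972 and 7222 normalized counts in control and 6397 and 6524 in DENR KO samples. The groups did not overlap, and the means, 7097 ± 177 and 6460.4 ± 90.3, put DENR KO at 91.0% of control. The log2 fold change was −0.14 (SE 0.053, 95% interval −0.25 to −0.02, unadjusted p = 0.0186), which did not pass after adjustment over all genes (limma adjusted p = 0.22). Untreated, the control samples had 4502 and 4875 and the DENR KO samples 4812 and 4890.5, which overlapped (log2 fold change 0.05, 95% interval −0.07 to 0.17, adjusted p = 0.85).

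Pvr and Nectin2 encode 2 related adhesion molecules that engage TIGIT, and both lie on chromosome 7. Pvr had 1731 and 1775 normalized counts in control and 1571 and 1633 in DENR KO samples with IFNγ. These groups did not overlap, and the log2 fold change of −0.13 (95% interval −0.27 to 0.0068) did not pass (limma adjusted p = 0.41). Untreated Pvr overlapped, with 1488 and 1521 against 1457 and 1498.5 (log2 fold change −0.03, adjusted p = 0.94). Nectin2 had 622 and 621 in control samples with IFNγ against 667 and 519.6 in DENR KO samples, so that its DENR KO samples lay on either side of the control samples (log2 fold change −0.08, 95% interval −0.29 to 0.14, adjusted p = 0.83). Untreated, it had 631 and 614 against 655 and 599, again with overlap (log2 fold change 0.01, adjusted p = 0.98).

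Cd276 and Cd80 are members of the B7 family, to which PD-L1 also belongs. Cd276 (B7-H3) had 217 and 212 normalized counts in control and 248 and 235 in DENR KO samples with IFNγ, and it was the one ligand whose DENR KO samples lay above the control samples (log2 fold change 0.17, 95% interval −0.09 to 0.43, limma adjusted p = 0.65). Untreated, it had 236 and 199 against 198 and 227, with overlap (log2 fold change −0.03, adjusted p = 0.97). Cd80, which binds CD28 and CTLA-4 and also PD-L1 on the same cell, was hardly detected and was below the filter, so it was not tested. It had 4 and 4 reads in untreated control samples and 5 and 2 in untreated DENR KO samples. With IFNγ there were 6 and 5 reads in control and 4 and 0 in DENR KO samples, where a count of 0 allows up to 3 reads. A difference in Cd80 was not detectable at this depth.

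Compared per length within a sample, Cd274 changed places among the ligands. In untreated control cells the order of the mean levels in RPKM was Cd47 (41.6), Lgals9 (26.7), Pvr (13.7), Nectin2 (9.92), Tnfrsf14 (5.26), Cd276 (3.31), Cd274 (0.715) and Cd80 (0.133). The samples of neighbours in that order did not overlap. In control cells with IFNγ the order was Cd47 (63.4), Lgals9 (34.5), Cd274 (33.3), Tnfrsf14 (19.6), Pvr (16.1), Nectin2 (9.98), Cd276 (3.29) and Cd80 (0.184), and Cd274 and Lgals9 overlapped (32.9 and 33.6 against 32.6 and 36.4). In DENR KO cells with IFNγ, Cd274 (18.9) came after Lgals9 (34.3) and Tnfrsf14 (19.3) and overlapped with the latter. Of the length-scaled reads of the 8 ligands, Cd274 held 0.78% and 0.63% in untreated control samples, 0.57% and 0.47% in untreated DENR KO samples, 18.5% and 18.4% in control samples with IFNγ and 11.9% in both DENR KO samples with IFNγ.

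Taken as a difference in log2(normalized count + 1) within each sample, Cd274 was lower in DENR KO relative to each of the other 6 ligands tested. With IFNγ the log2 difference of Cd274 minus Tnfrsf14 was 2.02 and 2.17 in control and 1.24 and 1.38 in DENR KO samples, a change of −0.79. The changes against Cd276, Nectin2, Lgals9, Pvr and Cd47 were −0.995, −0.75, −0.81, −0.70 and −0.69. The 6 differences hold the same Cd274 values and are not 6 separate observations. Each exact two-sided permutation test over samples gave p = 0.333, the smallest that 2 against 2 samples allow. Untreated, the change was −0.26 to −0.47 over the 6, and the samples overlapped for Tnfrsf14.

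Most genes between the IFNγ receptor and Cd274 were lower in the same comparison. Of 10 genes in that list, 7 were called lower in DENR KO with IFNγ and 0 higher, against 2.25% and 1.8% of all genes tested. Among the 7 were Jak2, the kinase at the receptor (log2 fold change −0.30, SE 0.064), and the signal carrier Stat3 (−0.54). The others were the transcription factors Irf1 (−0.52, SE 0.048), Irf2 (−0.32) and Irf9 (−0.28), and the feedback inhibitors Socs1 (−0.75, SE 0.063) and Socs3 (−0.62). The list was drawn up with earlier results of these data known, so the count is no independent evidence of its direction. Irf1 had 17208 and 16991 normalized counts in control and 11900 and 12009 in DENR KO samples with IFNγ. The 3 genes that were not called encode the receptor chains and the other kinase: Ifngr1 (−0.07), Ifngr2 (−0.11) and Jak1 (0.01). In control cells the RPM ratio of IFNγ to untreated was 12.3 for Irf1, 6.28 for Irf9, 6.27 for Socs1 and 6.08 for Stat3. It was 2.77 for Socs3, 2.24 for Irf2 and 1.85 for Jak2. For the 3 genes not called it was 1.17 (Ifngr1), 1.26 (Ifngr2) and 1.002 (Jak1). The 7 called genes were thus themselves higher with IFNγ. Whether their lower mRNA in DENR KO contributes to the lower Cd274 was not tested. The Cd274 log2 fold change of −0.83 was below that of all 10. The median over the 10 was −0.31 against −0.00036 over all genes. The call of Jak2 was lost without control IFNγ replicate 2 (adjusted p = 0.0629), and that of Irf9 without control IFNγ replicate 1 or DENR KO IFNγ replicate 1 (adjusted p = 0.187 and 0.324). Untreated, limma, edgeR and DESeq2 called 0 of the 10, where limma called 0.579% of all genes. Of the 10, 0 had an unadjusted p under 0.05 (9.25% of all genes), and the median was 0.014. The interaction was called lower for 3 of the 10, Irf1, Stat3 and Socs1, where 0.442% of all genes were called in either direction.

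**Figure D4:**
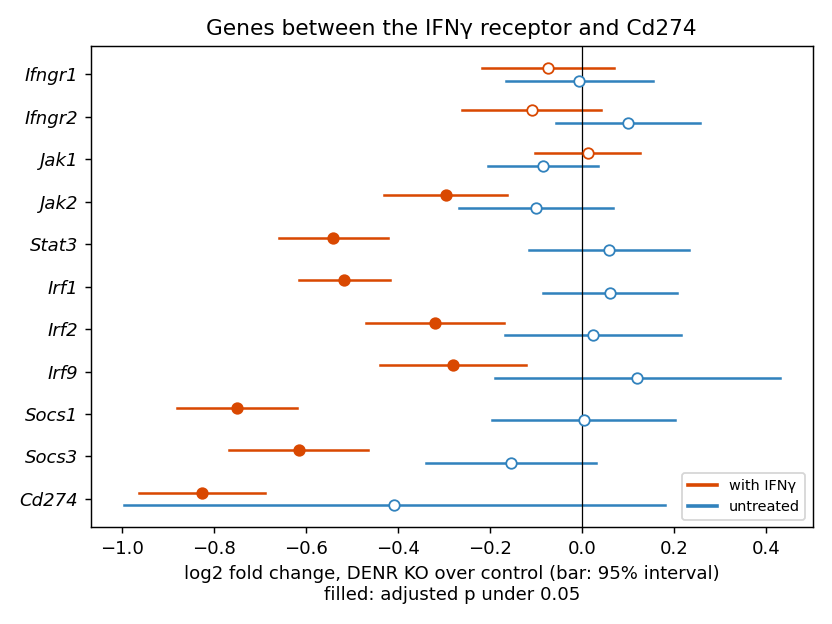
DENR KO over control as a log2 fold change for the 10 genes between the IFNγ receptor and Cd274, and for Cd274, with IFNγ (orange) and untreated (blue); bars are 95% intervals from limma and filled points have an adjusted p under 0.05. With IFNγ the receptor chains and Jak1 lie between −0.11 and 0.01 and the other 7 genes between −0.75 and −0.28.

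Among other genes tied to the ligands, Jun and Nectin1 were called with IFNγ. Over all genes tested with IFNγ, limma called 2.25% lower and 1.8% higher, and 13.4% had an unadjusted p under 0.05. Of 6 further transcription factors known to act on Cd274, limma called 1 lower with IFNγ, Jun (log2 fold change −0.24, adjusted p = 0.0056), a call lost without DENR KO IFNγ replicate 2 (adjusted p = 0.0897). Of 14 regulators of the PD-L1 protein, such as the membrane partner Cmtm6 and the enzymes that add sugars or ubiquitin to it, limma, edgeR and DESeq2 called 0, with 3 at an unadjusted p under 0.05. Of 23 further co-signalling ligands, 7 were tested and 1 was called, Nectin1, a cell adhesion relative of Nectin2, which had 568 normalized counts in DENR KO against 420.1 in control samples on average (log2 fold change 0.43, limma adjusted p = 0.0072; without control IFNγ replicate 2, adjusted p = 0.0565). Of 13 receptors of the ligands, 4 passed the filter in these tumor cells, limma, edgeR and DESeq2 called 0, and 1 had an unadjusted p under 0.05. In untreated cells limma, edgeR and DESeq2 called 0 genes of these 4 lists, with 1 co-signalling ligand at an unadjusted p under 0.05. Over all genes tested untreated, limma called 0.579%, and 9.25% had an unadjusted p under 0.05.

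The Cd274 gene lies on mouse chromosome 19 (GRCm38 29367455 to 29388095, plus strand, 7 exons), and the deposited coordinates match this annotation. Its start is 65 bases from that of Plgrkt, which encodes a plasminogen receptor and runs the other way. Jak2 lies on the same chromosome, starting 116 kb before Cd274. Within 300 kb there were 8 neighbours: Rcl1, Gm5518, Jak2, Insl6, Plgrkt, A930007I19Rik, Ric1 and Ermp1. With IFNγ limma called Jak2 lower, and the log2 fold changes of the 7 others were −0.68 for Insl6 (adjusted p = 0.13), −0.28 for Plgrkt (adjusted p = 0.12), 0.02 for Rcl1, 0.15 for Gm5518, 0.03 for A930007I19Rik, 0.07 for Ric1 and 0.14 for Ermp1. With 1 IFNγ sample left out at a time, the log2 fold change ran from −1.02 to −0.337 for Insl6. It ran from −0.385 to −0.165 for Plgrkt and from −0.329 to −0.264 for Jak2. Each such fit leaves 1 sample in a group. The call of Jak2 was lost without control IFNγ replicate 2. The genes next to Cd274 on one side also had the higher ratios of IFNγ-treated to untreated RPM in control cells. These were 7.11-fold for Insl6, 2.09-fold for Plgrkt and 1.85-fold for Jak2. The ratio was 1.02-fold for Rcl1, 1.002-fold for Gm5518, 0.906-fold for Ric1, 0.888-fold for Ermp1 and 0.818-fold for A930007I19Rik. Insl6 rested on few reads (means of 0.732 and 5.21 RPM), A930007I19Rik and Ric1 overlap on opposite strands, and Gm5518 is a processed pseudogene, so the reads of these 3 are uncertain where strand or gene copies were not told apart.

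**Figure D5:**
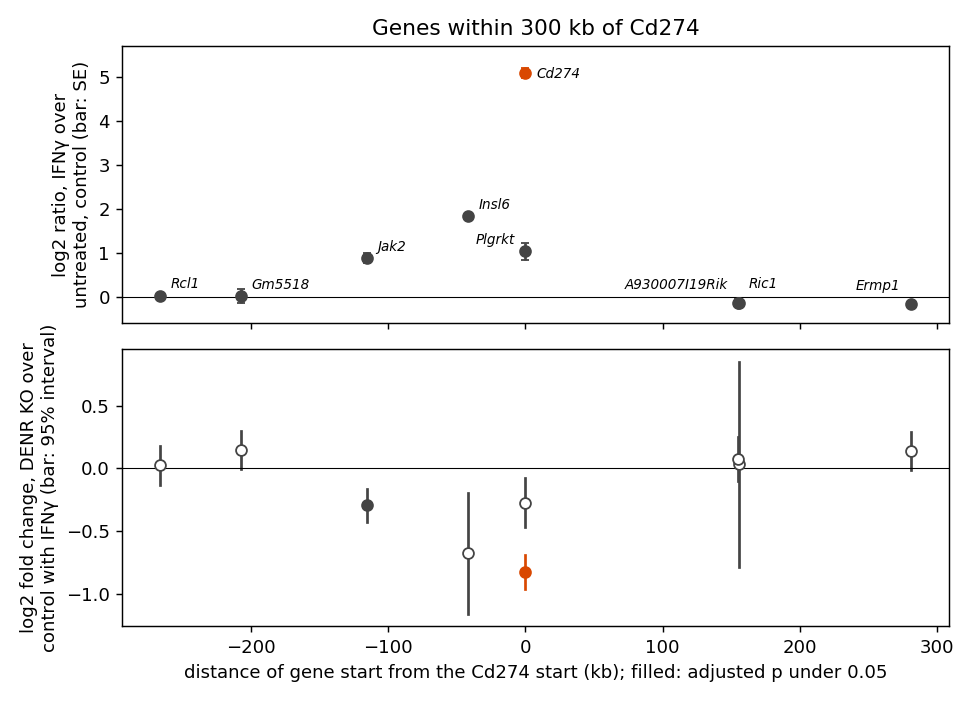
Genes within 300 kb of Cd274 by the distance of their start from its start, in kb. The upper panel shows the log2 ratio of IFNγ-treated over untreated control cells (bars: SE), with Cd274 at 5.08 and Insl6 at 1.84. The lower panel shows the effect of DENR KO with IFNγ as a log2 fold change over control (bars: 95% intervals; filled: adjusted p under 0.05), with Cd274 at −0.83 and Jak2 at −0.30.

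The genes whose pattern over the 8 samples was most like that of Cd274 were Zbp1, BC023105, Serpina3g, Ciita and Gja4. They were taken from 10325 genes with a mean of at least 100 by the root mean square difference in log2(RPM + 1) after centring each gene on its own mean, which was 0.160, 0.164, 0.215, 0.215 and 0.222. Many genes shared the step between treatments: 148 genes had a Pearson correlation above 0.99 with Cd274, and ranked by that correlation only Ciita of the 5 stayed among the first 5. Zbp1 is a sensor of nucleic acids, Ciita the master activator of MHC class II genes, Serpina3g a protease inhibitor and Gja4 a gap junction protein. With IFNγ their log2 fold changes in DENR KO were −0.68, −0.69, −0.72, −0.75 and −0.83, a description, since these samples chose them. Among the ligands, Tnfrsf14 came nearest to Cd274 at a difference of 1.54 (rank 101), then Cd47 at 2.17 (rank 390), and Nectin2 was farthest at 2.44 (rank 3924).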

How the data were processed

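Libraries of poly(A)-selected RNA from 8 MC38 samples were sequenced as paired ends. The submitters' notes name HISAT2 2.0.5, StringTie 1.3.3b, featureCounts 1.5.0-p3 and DESeq2 1.20.0 and build mm9, while the coordinates in the tables are those of GRCm38. The authors deposited, per treatment, a normalized signal for each gene and sample, here called a normalized count: reads divided by a size factor. All values (100%) were whole multiples of the smallest, within 0.001 reads, so reads could be recovered. The deposited log2 fold changes and p-values of the authors' own comparison were not used. Strand handling was not given in the sources used here.

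The deposited signal is not a raw count, so the test planned for that case was used: limma 3.58.1 (R 4.3.3, trend, robust) on log2(value + 1), mean of at least 10, Benjamini-Hochberg over all genes tested (13928 with IFNγ, 13998 untreated, 14268 for the interaction), 2 samples a group. The pseudocount understates changes of low genes. edgeR 4.0.16 and DESeq2 1.42.0 on recovered reads, pseudocount 5, other filters, median centring, a replicate block, 1 fit of all samples and each sample left out were alternatives. Scripts were tested on simulated data. The members and lists were chosen with earlier results of these data known; 1 gene of the list between the IFNγ receptor and Cd274 is not reported here. Beside the members and Denr, genes named were called genes of the lists, neighbours within 300 kb and the 5 genes most like Cd274; Ifngr1, Ifngr2, Jak1, Cmtm6 and Dcn's marker list are named as context after their values were seen. Read totals limit precision for low genes, where counting error dominates.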

Additional observations from a re-analysis of the deposited data

Results flagged for a closer look

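In 4 of the genes named, the DENR KO effect with IFNγ differed from the untreated effect by the interaction test of limma over all 8 samples, and in each the effect with IFNγ was the lower. The difference in log2 fold change was −0.58 for Irf1 (adjusted p = 0.00019), −0.75 for Socs1 (adjusted p = 0.00048), −0.60 for Stat3 (adjusted p = 0.0021) and −1.02 for Serpina3g (adjusted p = 0.00069). For Cd274 the same difference was −0.42 and did not pass (adjusted p = 0.78), and whether it differs from those of the 4 genes was not tested. Serpina3g was picked for its likeness to Cd274 over these samples. The SE of its difference, 0.15, is below the 0.26 of its untreated effect alone. Its adjusted p is therefore likely too low.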

How the results depend on the processing

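The Cd274 fold change with IFNγ lay between −0.84 and −0.81 over all 12 alternatives. It was called under each alternative that kept 2 samples a group (adjusted p from 1.89e-20 with DESeq2 to 0.00034 with limma on all 8 samples). A fit with 1 sample left out has 1 sample in a group and no spread within it. The untreated and interaction values of Cd274 were not called under any alternative run, and untreated Cd274 fell under the filter at a mean of at least 50. Levels below about 50 reads, as in untreated Cd274 and Cd80, limit what can be seen. The replicate numbers of the labels pair nothing that is stated: deviations of same-numbered samples correlated at 0.223 with IFNγ and 0.047 untreated. With the replicate number as a block the genes called came to 1455 with IFNγ (565 without it), 257 untreated (81) and 98 for the interaction (63), and 2 ligands were called with IFNγ, Cd274 and Cd47 (adjusted p = 0.00125 for Cd47, 0.00125 to 0.711 over its alternatives). The block also brought Insl6 and Plgrkt past the threshold (adjusted p = 0.0352 and 0.0179). One fit of all 8 samples lost Irf9 (adjusted p = 0.230), and DESeq2 lost Irf9 (0.135). Of the 5 genes most like Cd274, that 8-sample limma fit lost BC023105 and Ciita (adjusted p = 0.518 and 0.353). Zbp1 kept its call in 11 of 12 alternatives, and Serpina3g and Gja4 kept theirs in all 12. DESeq2 called 375 genes with IFNγ and 51 untreated, and a required log2 fold change beyond 0.5 left 215 and 30. Untreated, median centring gave 29 lower and 44 higher in place of 21 and 60. Leaving out a sample gave 35 to 92 genes for the interaction (35 without DENR KO IFNγ replicate 2, 37 without control IFNγ replicate 2 and 39 without DENR KO untreated replicate 1) and 35 to 91 untreated (35 without control untreated replicate 2). The log2 ratio of Cd274 with IFNγ to untreated was 5.51 in control and 5.09 in DENR KO cells on the deposited scale, and 4.05 and 3.41 with a pseudocount of 5, in place of 5.08 and 4.57. Near 0, fold changes changed sign with a sample left out. With IFNγ the ranges were −0.26 to 0.10 (Nectin2), −0.12 to 0.041 (Tnfrsf14), −0.10 to 0.062 (Lgals9), −0.041 to 0.10 (A930007I19Rik) and −0.050 to 0.096 (Rcl1). Untreated they were −0.16 to 0.091 (Cd276), −0.055 to 0.074 (Nectin2, −0.017 with median centring), −0.39 to 0.11 (Tnfrsf14), −0.0071 to 0.13 (Lgals9) and −0.0071 to 0.11 (Cd47). For the interaction they were −0.27 to 0.092 (Nectin2), −0.15 to 0.36 (Tnfrsf14) and −0.16 to 0.00052 (Lgals9). Where not shown by a value, the cause was not tested.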
